A study of Mus musculus with 12 samples.

Results

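The numbered Zfp genes are the mouse genes named Zfp followed by digits alone, most of which encode zinc finger proteins. They were chosen by name, by protein-coding biotype and by a mean of at least 1 FPKM over all libraries, and 247 of the 365 genes with such names met the rule. FPKM is a read count scaled by gene length and library size, so FPKM levels of different genes can be set side by side. Because the level itself chose the members, their levels are a description and were not tested. The expression was measured by RNA-seq, with an mRNA library kit, in primary mouse CD8+ T cells that had been activated and transfected with an siRNA. Their genotype is labelled WT in the siNTC groups and Creb1 KD in the siCreb1 groups. The 4 groups of 3 libraries each were siNTC (non-targeting siRNA, DMSO), siNTC plus TVA, siCreb1 (siRNA against Creb1, DMSO) and siCreb1 plus TVA, each kept in DMSO or TVA for 24 hours. TVA is trans-vaccenic acid, a long-chain fatty acid of ruminant fat, and Creb1 encodes a transcription factor that binds cAMP response elements in promoters. Nothing in the labels says that libraries came from separate mice, so the p-values measure the spread between these libraries, which may be technical.

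Zinc finger proteins fold short stretches of the chain around zinc ions. Most numbered Zfp proteins carry tandem C2H2 fingers, each of which can read a few bases of DNA, and many join them to a KRAB domain that recruits Trim28 and, through it, the histone methyltransferase Setdb1 and heterochromatin proteins. KRAB zinc finger proteins are known for silencing retroelements and holding imprints. The names also cover unrelated proteins, such as the CCCH protein Zfp36, which binds AU-rich elements of cytokine mRNAs in T cells and hastens their decay.

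The libraries held between 16660234 and 24602484 recovered reads, and a member had a mean of 474 reads per library at the median, with a range of 21.8 to 5181. Creb1 was at 10.3 to 12.4 FPKM in the 6 siNTC libraries, TVA included, and at 1.17 to 1.81 FPKM in the 6 siCreb1 libraries, so the knockdown followed the labels. All 8 CD8 T cell markers had a mean of at least 21.4 FPKM, led by Cd8b1 at 887 FPKM. Their summed FPKM was 2295 to 2325 in the siNTC groups and 2175 to 2211 in the siCreb1 groups. With knockdown without TVA, Cd8b1, Cd3d, Cd3g and Lck fell by 0.10 to 0.16 on the log2(FPKM + 1) scale while Cd8a rose by 0.09, and with TVA Cd8b1 and Cd3d fell and Cd8a rose (adjusted p under 0.05, limma). Of 13 markers of other cells, 6 had a mean of at least 1 FPKM, with Lyz2, a myeloid gene, highest at 6.19, and none was at 0 in every library. Their sum was 14.2 to 17.7 FPKM in the groups other than siCreb1 plus TVA, where it was 18.2 to 19.4, and Lyz2 rose by 0.40 with knockdown with TVA (adjusted p = 0.0478, limma). In such bulk RNA fewer cells of a type and less RNA per cell cannot be told apart, and the part of either marker list in the results was not tested.

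Full cAMP response element letters stood in the promoter windows of 8 members, and 5 of those windows are shown because Creb1 was the gene knocked down. The RefSeq promoter table (GRCm38.p6) held windows of 300 bases, 250 before and 50 after the start site, for 210 of the 247 members. The letters searched were TGACGTCA, which read the same on both strands, and the shorter TGACG. The shorter letters were also searched as CGTCA, their reverse complement, and the full letters contain both. Each line gives the strand of the gene, 5′ to 3′, upstream of the start site only, with the full letters in capitals.
Zfp266: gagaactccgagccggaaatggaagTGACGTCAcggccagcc
Zfp426: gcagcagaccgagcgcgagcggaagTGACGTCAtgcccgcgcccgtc
Zfp595: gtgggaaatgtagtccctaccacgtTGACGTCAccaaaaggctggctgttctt
Zfp953: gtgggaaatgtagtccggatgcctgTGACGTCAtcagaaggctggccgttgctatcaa
Zfp367: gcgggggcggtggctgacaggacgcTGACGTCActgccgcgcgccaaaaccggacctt
The windows lie on the minus strand at chr9:20521420-20521461 (Zfp266), chr9:20492747-20492793 (Zfp426), chr13:67332561-67332613 (Zfp595), chr13:67360592-67360649 (Zfp953) and chr13:64152446-64152503 (Zfp367). The first letter of the motif was 17 to 105 bases before the start site. Zfp266 with Zfp426, and Zfp595 with Zfp953, are neighbours in 2 chromosomal groups of KRAB members. Zfp335, Zfp523 and Zfp868 also held the full letters. The Zfp367 letters shown lie before a start site inside the listed gene (chr13:64133018-64153202). A further Zfp367 promoter, with the shorter letters at chr13:64153333-64153387 before the gene, held no full letters. The share of matched members with the full letters was 3.81%, against 3.84% of 7998 tested genes and 2.03% of all 27025 genes in the table. For the shorter letters it was 39.0%, 37.9% and 23.0%.

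None of the 8 members with the full letters passed the test in either knockdown comparison. In siCreb1 against siNTC cells without TVA, 5 of the 8 lay below 0 and their median difference was -0.05 on the log2(FPKM + 1) scale. With TVA, 4 of the 8 lay below 0 and the median was 0.02. Of the 12 members that fell without TVA, 8 had a promoter in the table and 0 of these held the full letters, which says only that these letters were not in this window.

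The members were expressed at low to moderate levels. Their median over members of the mean FPKM was 4.84, between 1.02 and 37.1, and the median of all 11550 genes with a mean of at least 1 FPKM was 8.17. Above 10 FPKM were 49 members and above 5 FPKM were 120. The members nearest the limit were Zfp446 and Zfp821 at 1.02 FPKM each, and Zfp593 and Zfp551 just below it at 0.999 and 0.998. The 118 numbered genes under the limit had a median of 0.0512 FPKM, 64 of them were under 0.1 and 12 were listed at 0 in every library. Zfp57, which keeps imprints in the embryo, was among the low ones at a mean of 0.0150 FPKM.

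Of the 8 highest members 7 had no KRAB domain. Zfp207, a spindle protein that also has 2 fingers by pattern, was highest at 37.1 FPKM. Zfp740 followed at 32.3, Zfp598, a ubiquitin ligase that senses collided ribosomes, at 30.0 and Zfp36 at 27.8. Zfp869, the highest KRAB member, reached 26.3, and Zfp706, a protein of 76 residues, reached 24.5. Zfp91, a ubiquitin ligase of non-canonical NF-κB signalling, and Zfp217, a partner of the CoREST repressor, both had means of 22.0 FPKM.

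**Figure D1:**
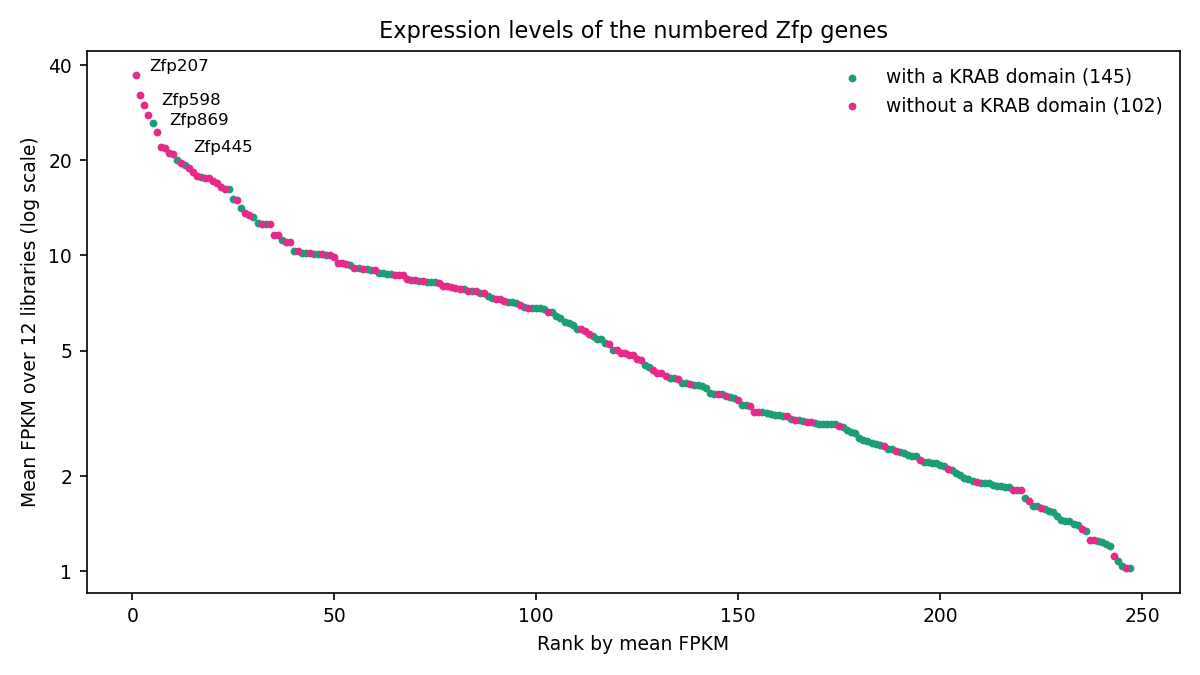
Mean FPKM over 12 libraries (vertical axis, log scale) of the 247 numbered Zfp genes against their rank (horizontal axis), with 145 members that have a KRAB domain in green and 102 without one in pink. The top 4 ranks are genes without KRAB, and the 17 KRAB genes at 10 FPKM or more are fewer than the 32 others there.

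A KRAB domain was found in 145 members by a sequence profile and not in 102. The KRAB members had a median of 3.20 FPKM (17 of them at 10 or more) and the others 7.78 (32 at 10 or more), which are levels and were not tested. Members carried a median of 10 C2H2 fingers by pattern, between 0 and 37. The 6 with none were Zfp330, Zfp36, Zfp365, Zfp703, Zfp839 and Zfp972. Chromosome 7 held 63 members, 25.5% of them, against 7.30% of all tested genes, and chromosomes 17, 13 and 8 held 32, 23 and 18. With a gap of at most 100000 bases between neighbours, 122 members stood in 34 runs. The longest run was 13 members at chr7:29768552-30169750, of which 10 had a KRAB domain.

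Summed over the members, expression hardly moved. The sum was 1685 ± 16.2 FPKM (SD, n = 3) in siNTC, 1661 ± 8.65 in siNTC plus TVA, 1672 ± 11.0 in siCreb1 and 1693 ± 12.8 in siCreb1 plus TVA cells. Single libraries lay between 1652 and 1704 FPKM. The siNTC plus TVA libraries lay just below the siNTC libraries and below the siCreb1 plus TVA libraries, and every other pair of groups overlapped. The largest of the 4 pairwise log2 differences of a member was under 0.5 for 246 of 247 members (99.6%), against 93.8% of all tested genes and 98.0% of the protein-coding ones. The exception was Zfp970. The within-group SD on this scale was 0.084 at the median member and 0.076 at the median tested gene.

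**Figure D2:**
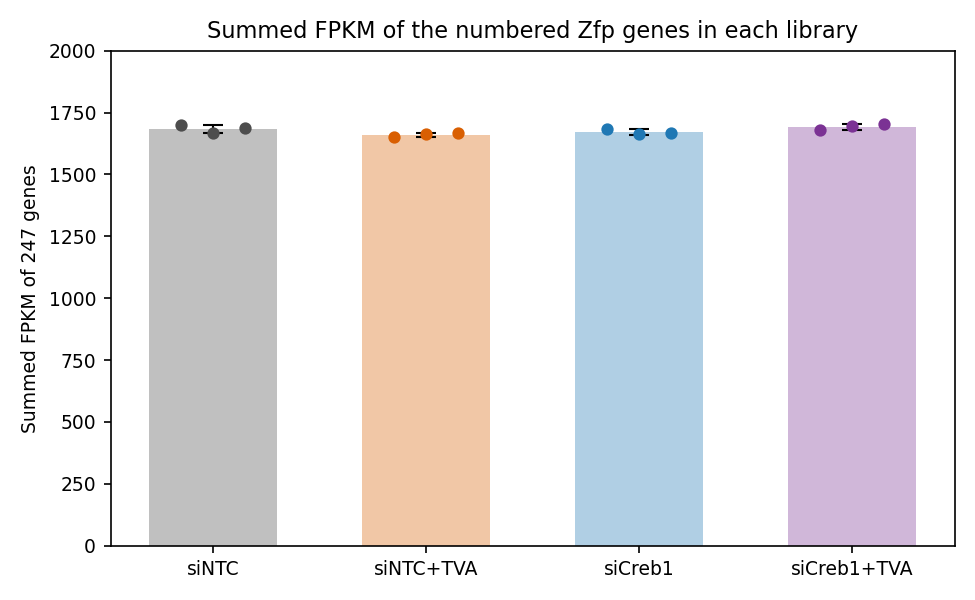
Summed FPKM of the 247 numbered Zfp genes (vertical axis, from 0) in each of the 12 libraries (points) by group, with bars for the mean and whiskers for the SD (n = 3). All 12 libraries lie between 1652 and 1704 FPKM.

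Zfp36 was the member whose response to TVA differed with Creb1. Its FPKM was 31.6, 31.2 and 29.4 in the siNTC libraries and 28.6, 25.9 and 26.9 with TVA. In siCreb1 cells it was 24.9, 24.8 and 24.7, and with TVA 27.6, 28.6 and 28.8. The siNTC libraries were thus highest and the siCreb1 libraries lowest, and TVA libraries lay below siNTC but above siCreb1 cells. Zfp36 fell with TVA in siNTC cells, with a log2(FPKM + 1) difference of -0.18 (SE 0.04, adjusted p = 0.0179, limma, n = 3), which passed in 15 of 21 alternatives. In siCreb1 cells the difference was 0.19, with an adjusted p of 0.0779 in limma. The interaction, the TVA difference in siCreb1 minus that in siNTC cells, was 0.36 (SE 0.05, adjusted p = 0.00663, limma), and it passed the test in all 20 alternative fits with adjusted p between 0.000285 and 0.0290. Zfp36 was the only one of the 247 members called for the interaction, where 2.24% of all tested genes were called. Zfp971 came next at -0.49 (adjusted p = 0.0528, limma) and passed without siNTC replicate 3 (-0.54) or siCreb1 replicate 3 (-0.55). Zfp207 passed without siNTC plus TVA replicate 1 (-0.17), and Zfp41 in limma-voom on the recovered reads (-0.61). Zfp36 is at chr7:28376784-28380253 (GRCm38, minus strand, ENSMUSG00000044786), and the antisense gene Gm44710 across it had 3.08 reads on average against 2003.

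The CCCH relatives of Zfp36, which the naming rule leaves out, fell likewise with TVA in siNTC cells and with knockdown without TVA. Both comparisons subtract the same siNTC libraries, so the falls in them are not independent, also for Zfp36. Zfp36l2, which also destabilizes AU-rich mRNAs, was at 199 ± 11 FPKM (SD, n = 3) in siNTC, 164 ± 1.9 in siNTC plus TVA, 147 ± 6.5 in siCreb1 and 156 ± 2.2 in siCreb1 plus TVA cells. Its interaction was 0.36 (SE 0.06, adjusted p = 0.00793, limma). Zfp36l1, from 40.5 ± 2.0 in siNTC to 34.6 ± 0.43 with TVA and 34.9 ± 2.5 in siCreb1 cells, had an interaction of 0.29 (adjusted p = 0.0636, limma), which missed the threshold. Both fell with TVA in siNTC cells (-0.28 for Zfp36l2, adjusted p = 0.00176, and -0.22 for Zfp36l1, adjusted p = 0.0250, limma). Both also fell in siCreb1 against siNTC cells without TVA (-0.43, adjusted p = 0.000151, and -0.21, adjusted p = 0.0196, limma). With TVA in siCreb1 cells neither was called (0.09 for Zfp36l2, adjusted p = 0.544, and 0.08 for Zfp36l1, adjusted p = 0.706, limma).

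**Figure D3:**
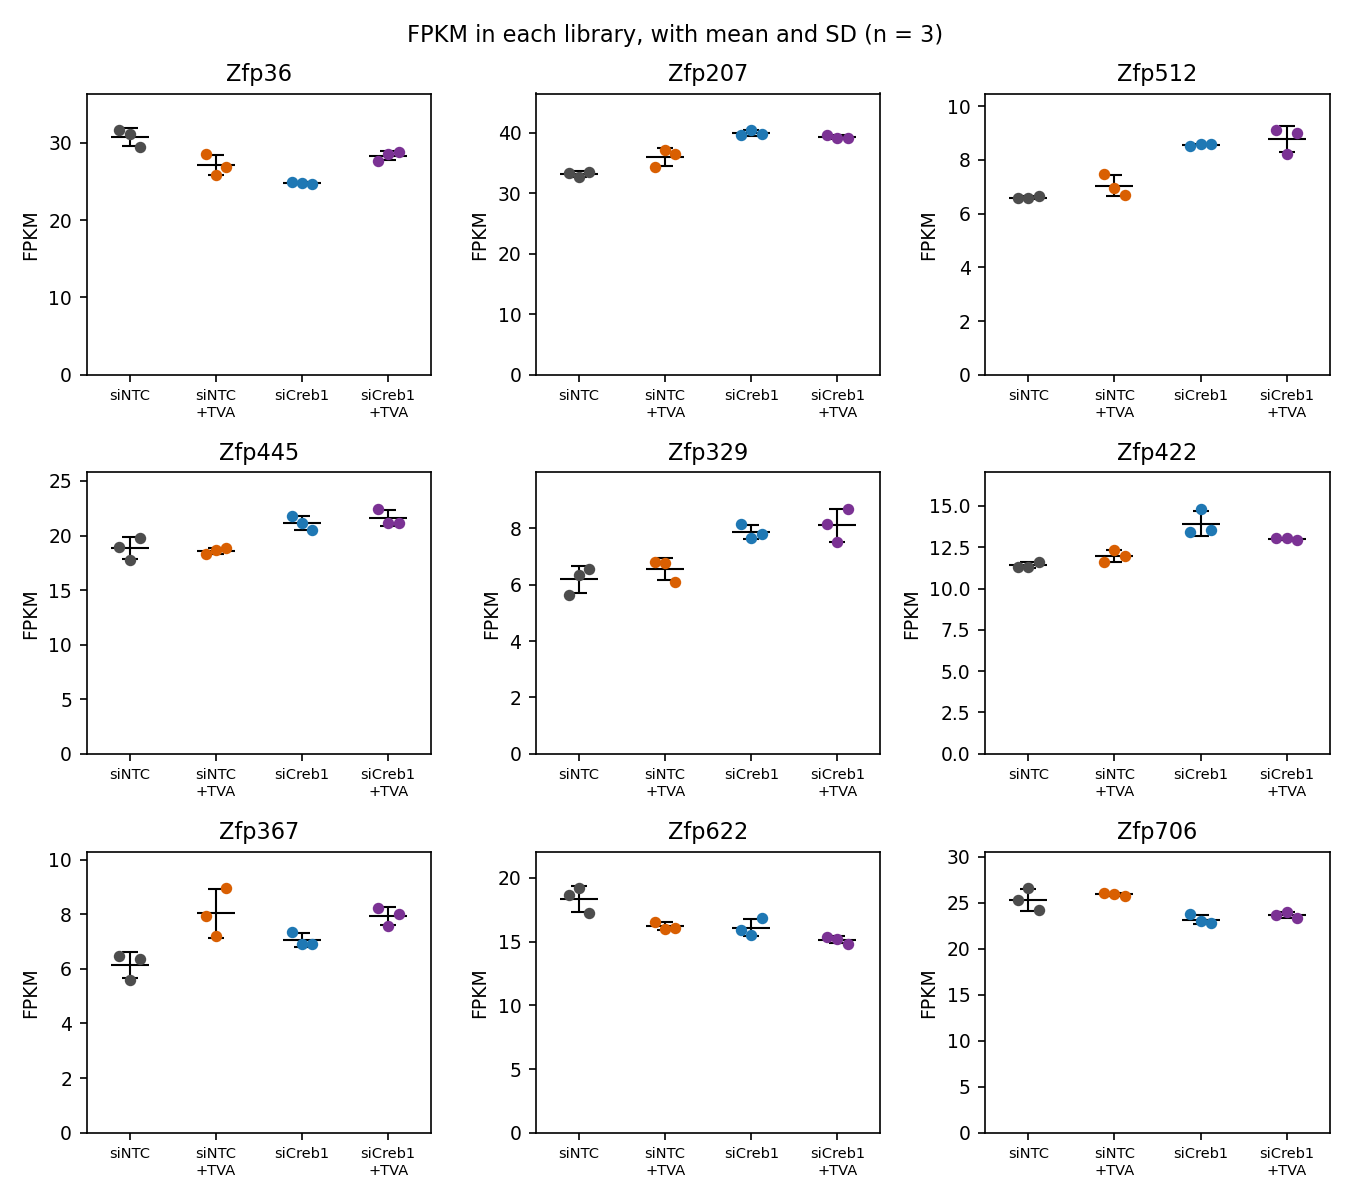
FPKM (vertical axes, from 0) of 9 numbered Zfp genes in each library (points) of the 4 groups, with the mean and SD (n = 3). Zfp36 is highest in siNTC and lowest in siCreb1 cells, while Zfp207, Zfp512, Zfp445 and Zfp329 are higher in both siCreb1 groups than in both siNTC groups.

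Knockdown of Creb1 without TVA moved 23 members. Of the 247, 11 rose and 12 fell, together 9.31%, where 13.7% of all tested genes were called (6.52% rose and 7.21% fell). Among protein-coding tested genes 15.1% were called. The median difference over members was -0.005 against -0.001 over all tested genes, and 119 members lay above 0 (48.2%, and 49.6% of all tested genes). Rescaled to TPM, in which each library has the same sum of length-scaled values, the split became 13 risen and 1 fallen, while all tested genes went from 753 risen and 833 fallen to 908 and 297 (10.4% called) and their median from -0.001 to 0.043. Limma-voom on recovered reads gave 16 and 7 members and 1182 and 792 of all tested genes (17.1%). The count was 13 without siNTC replicate 1 or siCreb1 replicate 2. Of the 23 calls, 6 passed in every alternative: Zfp36, Zfp207, Zfp329, Zfp422, Zfp512 and Zfp971. Members lay at lower levels than all tested genes, and log2(FPKM + 1) understates changes of low genes. The part of level in the share called was not tested. At a mean of at least 5 FPKM, 8 of 120 members rose and 12 fell, beside 19.3% called of all genes at that limit.

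Zfp207 was at 33.4, 32.7 and 33.6 FPKM in siNTC and at 39.6, 40.5 and 39.9 in siCreb1 libraries. The groups did not overlap, and the difference was 0.26 (SE 0.03, adjusted p = 0.000502, limma). With TVA it was at 34.3, 37.2 and 36.6 in siNTC and at 39.6, 39.1 and 39.1 in siCreb1 libraries, a difference of 0.12 (adjusted p = 0.0280, limma) that missed the threshold in 7 of 21 alternatives. Zfp36 fell by 0.30 on the log2(FPKM + 1) scale without TVA (SE 0.04, adjusted p = 0.000886, limma), to 0.806 of its siNTC mean.

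Zfp512 was at 6.57, 6.57 and 6.65 FPKM in siNTC and 8.54, 8.58 and 8.59 in siCreb1 libraries. With TVA it was at 7.48, 6.94 and 6.71 and at 9.11, 8.21 and 8.99. Each siCreb1 library was above each siNTC library, and the differences were 0.33 without TVA (SE 0.05, adjusted p = 0.00134) and 0.28 with TVA (SE 0.05, adjusted p = 0.00506, limma), both of which passed in all 21 alternatives. Zfp422, in which 6 fingers follow each other in 237 residues, rose from 11.4 ± 0.18 FPKM to 13.9 ± 0.75 (SD, n = 3) without TVA, by 0.27 (adjusted p = 0.00164, limma). Zfp329, a protein with 12 fingers, rose from 6.19 ± 0.49 to 7.87 ± 0.26, by 0.31 (adjusted p = 0.0112, limma).

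The steepest rises were in a pair of KRAB genes on chromosome 2 with few reads. Zfp970 was at 1.11, 1.38 and 1.53 FPKM in siNTC and 2.97, 2.12 and 1.98 in siCreb1 libraries (difference 0.51, adjusted p = 0.0229, limma). Zfp971 was at 2.50, 3.06 and 3.19 in siNTC and 4.62, 4.49 and 3.86 in siCreb1 libraries (0.44, adjusted p = 0.00514, limma). Of their 50-base transcript stretches, 49.5% and 51.1% also occur in transcripts of other genes, so reads may have been divided between copies and both values are uncertain. Among the other 29 members called in any comparison this share was at most 8.59%.

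The other members that rose without TVA were Zfp692 (0.29), Zfp950 (0.28), Zfp871 (0.24), Zfp397 (0.17) and Zfp445 (0.16). The other members that fell were Zfp516, Zfp511, Zfp472, Zfp622, Zfp707, Zfp87, Zfp281, Zfp386, Zfp954, Zfp706 and Zfp592, by between 0.10 and 0.23 on the log2(FPKM + 1) scale. Zfp622, which acts in the maturation of the large ribosomal subunit, went from 18.3 ± 1.0 to 16.1 ± 0.68 FPKM (SD, n = 3), and Zfp281, a promoter-binding factor studied in stem cells, from 22.9 ± 0.94 to 20.3 ± 0.43. Zfp511 shares its place with Tubgcp2 on the opposite strand, which had 776 reads on average against 391 for Zfp511. Zfp950 overlaps Grk5 in the same way (177 against 702 reads). Strandedness of the counting is not given in the sources used here, so those reads cannot be told apart.

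In the presence of TVA, knockdown raised 10 members and lowered 2, together 4.86%, where 10.1% of all tested genes were called (4.64% rose and 5.51% fell). Among protein-coding tested genes 10.8% were called. In TPM the split was 11 risen and 0 fallen, and over all tested genes 620 rose and 120 fell (6.41%) with a median of 0.037. The median difference was 0.020 over members and -0.012 over all tested genes, and 140 members lay above 0 (56.7%, and 46.0% of all tested genes). The count was 4 without siNTC plus TVA replicate 3 or siCreb1 plus TVA replicate 1, and 3 calls passed in every alternative: Zfp445, Zfp512 and Zfp950. At a mean of at least 5 FPKM, 8 of 120 members rose and 2 fell, beside 15.6% called of all genes at that limit.

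Zfp445, a KRAB protein that keeps parental imprints, was at 18.3, 18.6 and 18.8 FPKM in siNTC plus TVA and 22.4, 21.2 and 21.1 in siCreb1 plus TVA libraries. The groups were apart, with a difference of 0.20 (SE 0.04, adjusted p = 0.0120, limma). Without TVA the difference was 0.16 (adjusted p = 0.0244, limma). Zfp950 went from 2.83 ± 0.12 to 3.69 ± 0.16 FPKM (SD, n = 3), a difference of 0.29 (adjusted p = 0.0111, limma).

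Zfp420 had the largest difference, 0.32 (adjusted p = 0.0399, limma), from 1.91 ± 0.20 to 2.63 ± 0.14 FPKM (SD, n = 3). It passed in only 7 of 20 alternatives. The remaining rises were Zfp169 (0.28), Zfp329 (0.27), Zfp369 (0.23), Zfp317 (0.22), Zfp397 (0.16) and Zfp207. Zfp748 fell by 0.19 and Zfp706 by 0.13 on the log2(FPKM + 1) scale. Zfp706, at 23.7, 24.0 and 23.3 FPKM with siCreb1 plus TVA and 26.1, 26.0 and 25.7 with siNTC plus TVA, had a difference of nearly the same size without TVA (-0.12).

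The comparisons with and without TVA share no library, so their values can be set against each other. The 7 members called in both (30.4% of the 23 and 58.3% of the 12) had the same sign in both: Zfp207, Zfp329, Zfp397, Zfp445, Zfp512 and Zfp950 rose and Zfp706 fell. Among them only Zfp512 passed in every alternative in both comparisons. Zfp397 passed in 13 of 21 alternatives without TVA and 6 of 21 with TVA, and Zfp706 in 11 of 21 in each. Over all tested genes 561 were called in both (35.4% and 47.9% of each list), 504 of them with the same sign. Of the 23 called without TVA, 19 had the same sign with TVA, and of the 12 called with TVA, all 12 had the same sign without it. Over all 247 members 166 had the same sign (67.2%, and 64.5% of all tested genes), and Pearson's r across genes was 0.42, with 0.28 over all tested genes. Genes are not independent replicates. Zfp36, called without TVA, had 0.06 with TVA (adjusted p = 0.333, limma).

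**Figure D4:**
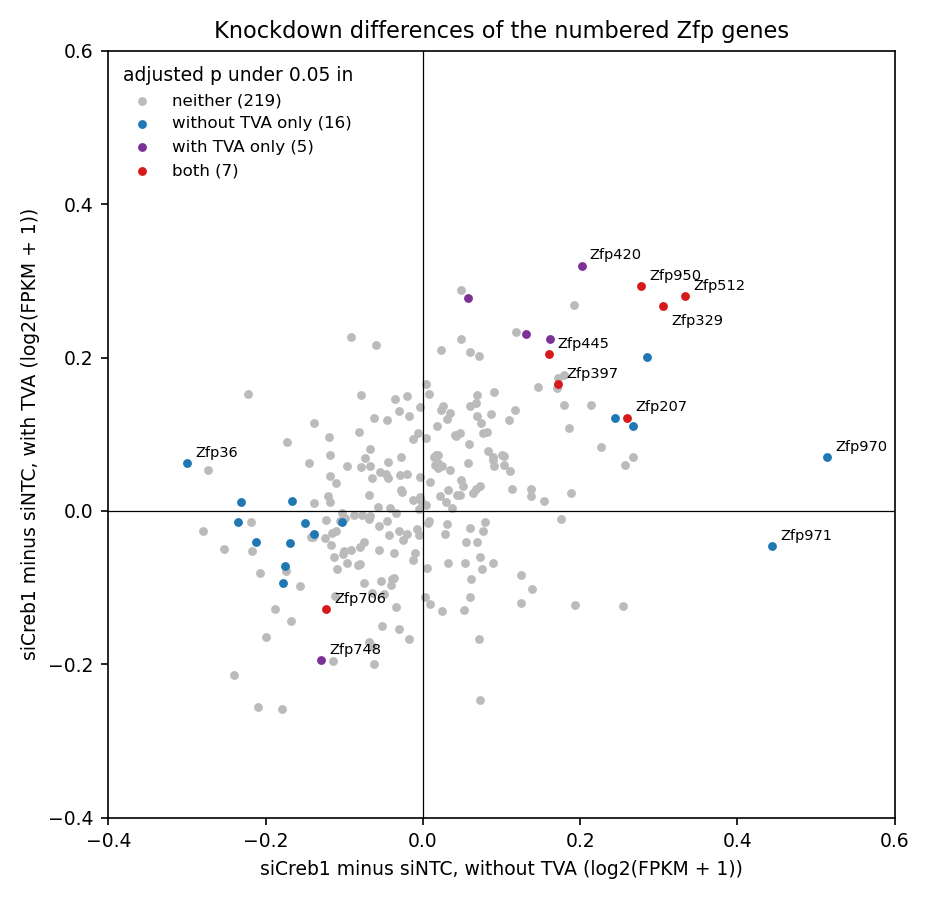
Difference of siCreb1 from siNTC in log2(FPKM + 1) without TVA (horizontal axis) and with TVA (vertical axis) for the 247 numbered Zfp genes, coloured by the comparison in which the adjusted p was under 0.05. The 7 genes called in both (red) lie in the upper right, except Zfp706 in the lower left, and Zfp36, Zfp970 and Zfp971 lie apart from the diagonal.

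TVA in siNTC cells moved few members. Of the 247, 3 rose and 4 fell, together 2.83%, where 7.38% of all tested genes were called (4.49% rose and 2.88% fell). Among protein-coding tested genes 8.35% were called. In TPM 1 rose and 0 fell, and 402 rose and 154 fell (4.81%) over all tested genes. The median difference was -0.016 against -0.006 over all tested genes. None of the 7 calls passed in every alternative, and the count was 1 without siNTC plus TVA replicate 2 and 3 without siNTC replicate 1, siNTC replicate 2 or siNTC plus TVA replicate 3. It was 4 without siNTC replicate 3, siCreb1 replicate 1, siCreb1 plus TVA replicate 1 or siCreb1 plus TVA replicate 2. Fitted on these 6 libraries alone, 0 members and 3.19% of all tested genes were called. At a mean of at least 5 FPKM, 2 of 120 members rose and 5 fell, beside 10.9% called of all genes at that limit.

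Zfp367 carries the full response element letters shown above before a start site inside the gene, and not in its promoter window before the gene. It was at 6.49, 5.59 and 6.36 FPKM in siNTC libraries and reached 7.94, 7.19 and 8.95 with TVA. All TVA libraries were above all siNTC libraries and the difference was 0.34 (SE 0.07, adjusted p = 0.0178, limma), past the threshold in 16 of 21 alternatives. In siCreb1 cells the TVA difference of Zfp367 was 0.15 (adjusted p = 0.552), and the interaction of -0.19 had an adjusted p of 0.452 in limma, so the differences in the 2 arms were not shown to differ. Zfp41 rose by 0.37 (adjusted p = 0.0291), from 1.29 ± 0.10 to 1.96 ± 0.23 FPKM (SD, n = 3), and Zfp207 by 0.11 (adjusted p = 0.0460, limma). Beside Zfp36, Zfp622 fell by 0.17, Zfp281 by 0.14 and Zfp943 by 0.13 on the log2(FPKM + 1) scale.

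TVA in siCreb1 cells gave no call among the members in limma, where 0.537% of all tested genes were called. At an unadjusted p under 0.05 there were 16 of 247 members, 12 higher and 4 lower, where 9.58% of all tested genes passed the same limit. Limma-voom on recovered reads called 2, Zfp36 and Zfp597, where it called 1.34% of all tested genes. Zfp597 had the largest difference, 0.27 (adjusted p = 0.210, limma), and Zfp971 the lowest, -0.26 (adjusted p = 0.298, limma). Above 0 were 156 of 247 members (63.2%, and 49.2% of all tested genes), with a median of 0.019 against -0.001 over all tested genes. The 2 TVA comparisons also share no library, and their differences had Pearson's r of 0.09 across the 247 members.

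Numbered Zfp genes with known roles were described by list, including genes under the limit of 1 FPKM, which were not tested. The lists are so short that 1 call is a large share of them. Of all tested genes 7.38% were called for TVA in siNTC cells, 13.7% for knockdown without TVA and 10.1% for knockdown with TVA. Of 10 genes with RNA or ribosome roles, 9 were tested. Zfp36, Zfp207 and Zfp622 were called both for TVA in siNTC cells and for knockdown without TVA. These comparisons subtract the same siNTC libraries, so a call in both is not independent agreement. Without siNTC replicate 1 or siNTC replicate 2, Zfp622 passed in neither. Zfp36 and Zfp207 kept the call for knockdown without TVA in all 21 alternatives. Zfp598, Zfp106, Zfp326, Zfp346, Zfp638 and Zfp830 were called in none of the comparisons. Of 6 with lymphocyte roles, 4 were tested and Zfp36 alone was called. Zfp91, Zfp318, which controls IgD splicing in B cells, and Zfp335, needed for T cell maturation, had differences between -0.09 and 0.06 in the 4 pairwise comparisons. Of 13 promoter and enhancer binding factors 11 were tested, and Zfp281 (knockdown without TVA, TVA in siNTC) and Zfp367 (TVA in siNTC) were called.

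Of 8 numbered Zfp genes of chromatin complexes or SUMO pathways 6 were tested. Zfp592, a partner of Zfp687 in a corepressor complex, was called once, falling by 0.10 on the log2(FPKM + 1) scale with knockdown without TVA. Of 10 KRAB genes known to silence retroelements or keep imprints, 5 were tested, and Zfp445 was called in both knockdown comparisons. Zfp809, which recognizes the primer binding site of retroviruses, was at 11.2 FPKM and was not called in any comparison, nor were Zfp932 (8.24), Zfp961 (6.35) and Zfp568 (2.20). Of the 145 KRAB members 5 rose and 5 fell with knockdown without TVA (6.90%), and of the 102 members without KRAB 6 rose and 7 fell (12.7%), beside 13.7% of all tested genes. With TVA 5 rose and 1 fell in each set (4.14% and 5.88%, beside 10.1%). The KRAB members also lay at lower levels (median 3.20 FPKM against 7.78), and log2(FPKM + 1) understates changes of low genes. The part of level in these shares was not tested.

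The 8 KRAB members in a row at chr13:67312998-67553830 (Zfp595, Zfp953, Zfp456, Zfp429, Zfp459, Zfp58, Zfp87 and Zfp748), which were picked after their values were seen, all lay below 0 for knockdown without TVA, with a median of -0.11. Below 0 in that comparison were also 128 of 247 members and 5824 of 11550 tested genes. Zfp87 was the only one of the 8 called there (-0.17, adjusted p = 0.0382, limma). With TVA 6 of the 8 lay below 0 (median -0.04), beside 107 of 247 members and 6237 of 11550 tested genes, and Zfp748 was called. The TVA comparison in siNTC cells subtracts the same siNTC libraries as knockdown without TVA. There 2 of the 8 lay above 0 (median -0.11), beside 109 of 247 members and 5510 of 11550 tested genes.

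The 20 listed KRAB cofactors and heterochromatin genes were all above 1 FPKM. Among them Uhrf1, Dnmt1 and Cbx5 had larger log2(FPKM + 1) differences than any numbered Zfp gene with TVA in siNTC cells. Trim28, the scaffold that KRAB domains bind, had a mean of 73.4 FPKM and Setdb1 10.3, and neither was called in any comparison. Of 20 cofactors and heterochromatin genes, 3 rose and 0 fell with TVA in siNTC cells, and 5 rose and 0 fell with knockdown without TVA. These are 15% and 25% of the list, beside 7.38% and 13.7% of all tested genes. Both comparisons subtract the same siNTC libraries, so their rises are not independent. With TVA the knockdown gave 0 rises and 1 fall, of Uhrf1, which is 5% of the list beside 10.1% of all tested genes. Uhrf1, which guides Dnmt1 to newly copied DNA, was at 21.8, 20.8 and 21.6 FPKM in siNTC libraries and reached 33.3, 33.5 and 33.7 with TVA. In siCreb1 cells it was at 30.6, 30.3 and 29.9 without and 32.1, 30.8 and 31.2 with TVA. Uhrf1, Dnmt1 (the maintenance DNA methyltransferase) and Cbx5 (heterochromatin protein HP1α) had interactions of -0.57, -0.41 and -0.47 (adjusted p = 9.21e-05, 0.00308 and 0.00101, limma), the sign opposite to that of Zfp36.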

How the data were processed

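RNA was measured in 12 libraries of primary mouse CD8+ T cells, 3 per group, with groups and replicate numbers taken from the labels. The authors deposited FPKM values for 54532 genes. Per the labels the build was GRCm38 (mm10), and the aligner and counting program are not given in the sources used here. Reads were recovered by dividing FPKM times gene length by its smallest step, and at least 99.9952% of values came out whole (within 0.1 reads).

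The 11550 genes with a mean of at least 1 FPKM were fitted together on log2(FPKM + 1) with limma 3.58.1 in R 4.3.3, with one coefficient per group and a mean-variance trend. This scale understates changes of low genes. P-values were Benjamini-Hochberg adjusted over all tested genes, and "called" means an adjusted p under 0.05. The fit was tested on simulated data. The members and gene lists were chosen with earlier results of these data known. The text names Creb1, called members, the largest changes, the highest members, those beside the limit of 1 FPKM, and list genes.

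KRAB domains were found with a profile (pyhmmer 0.12.3, 16 seed windows of 36 residues, E-value of at most 0.0001) in translated GENCODE vM21 coding sequences, and fingers by a C2H2 pattern. Alternatives were a pseudocount of 0.1, no filter, a mean of at least 5 FPKM, quantile normalization, TPM computed from FPKM, a replicate block, no trend, limma-voom on recovered reads, only the libraries compared, and leaving out each library.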

Additional observations from a re-analysis of the deposited data

Results flagged for a closer look

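Zfp36 was marked because the effect of TVA on it differed between the siNTC and siCreb1 arms by the test of the difference itself. The interaction was 0.36 on the log2(FPKM + 1) scale (SE 0.05, adjusted p = 0.00663, limma), with TVA libraries lower in 3 of 3 in siNTC cells and higher in 3 of 3 in siCreb1 cells. Groups of 3 libraries were not tested for single outlying libraries.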

How the results depend on the processing

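No called difference of a member changed sign in any alternative, and 10 of the 43 calls passed the threshold in all of them (12 of 43 in every fit that left out one library). For TVA in siNTC cells the 7 called members became 2 with no filter, 1 with TPM, 2 with the replicate block, 4 without the trend and 0 with only the libraries compared, and 1 to 5 when one library was left out; the median was -0.039 at a mean of at least 5 FPKM and -0.025 to -0.00356 without one library. For TVA in siCreb1 cells limma-voom called 2 with a median of 0.036, and leaving out one library gave 0 to 1. For knockdown without TVA the 23 called became 11 with no filter, 14 with TPM and 8 with only the libraries compared, and 13 to 21 without one library; the median was -0.030 at a mean of at least 5 FPKM, -0.030 with quantile normalization, 0.038 with TPM, 0.014 with limma-voom and -0.015 to 0.00703 without one library. For knockdown with TVA the 12 became 4 with no filter, 19 with limma-voom, 4 to 13 without one library and 9 with only the libraries compared; the median was 0.0054, 0.072 and 0.044 with quantile normalization, TPM and limma-voom, and 0.019 to 0.031 without one library. The interaction gave 2 with limma-voom and 1 to 2 without one library. In TPM the summed level was 1.02 times siNTC without TVA and 1.06 times with TVA. Gm23935, a microRNA gene of 57 bases, took 3.58% to 9.11% of summed FPKM, the sum by which TPM divides. The cause of any of these changes was not tested.

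Same-numbered libraries deviated together with correlations between -0.059 and 0.060 over 18 pairs, so the numbers were not taken to pair samples. With the replicate block the called members were 2, 0, 19, 9 and 1 in the order TVA in siNTC, TVA in siCreb1, knockdown without TVA, knockdown with TVA and interaction, and the shares of all tested genes called fell to 5.95%, 0.294%, 11.99%, 8.42% and 1.69%. A fit of only the libraries compared was not made for the interaction, which needs all 12.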
